A study of Cynoglossus semilaevis with 30 samples.

Results

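The genes described here were 57 of the 22292 in the table of an RNA-seq series on females of a flatfish, the Chinese tongue sole (Cynoglossus semilaevis). They were chosen by a rule on product name that used no values, though with earlier results of these data known. The name had to contain trypsin, elastase, bile salt-activated lipase, carboxypeptidase A1, A2 or B, amylase or pancreatic. It could not contain inhibitor, a word that removed 14 of 71 matches. Of the 57, 36 were named for digestive enzymes of the exocrine pancreas: 11 trypsins, 9 chymotrypsins, 9 elastases, 4 lipases, 2 carboxypeptidases and 1 amylase. The other 21 matched on a word alone, and 11 of them were tubulin polyglutamylases, which modify microtubules and whose name holds the letters of amylase. The study sequenced brain, pituitary, liver, gonad and muscle of large and of small females, all 1.7 years old, with 6 fish named per size class. The material of 2 fish was combined for each library, and each of the 10 groups of tissue and size class had 3 libraries.

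Acinar cells of the vertebrate exocrine pancreas make digestive enzymes in bulk and store them as inactive zymogens in secretory granules. Trypsinogen is activated in the gut lumen and its product trypsin then activates the zymogens of chymotrypsin, elastase and the carboxypeptidases, while amylase is released as an active enzyme and bile salt-activated lipase needs bile salts. In many bony fishes the pancreas is not a compact organ, and exocrine tissue lies scattered along vessels in the mesentery and, in some species, within the liver. In mammals the genes of the acinar enzymes are driven together by a complex of PTF1A and RBPJL.

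Library totals ran from 6130667 to 10504899 estimated counts. Levels are given in counts per 1000000 of the library total (CPM), or in FPKM, which is also scaled to transcript length, where genes are compared with each other. Replicates were compared by a chi-square over genes of 100 to 1000 counts. Counting noise alone would give 1 per gene, and the values were 1.69 to 2.51 for large gonad, small muscle and small pituitary and 5.41 to 47.8 for the other 7 groups. The libraries of those 3 groups were nearly alike, yet apart by more than noise, and stayed as 3 replicates. The labels describe 3 pools per group, and p-values measure the spread between these pooled libraries; in those 3 groups it may be technical in part, which was not tested.

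The 36 digestive enzyme genes took a large part of every liver library. They made up 4.81%, 8.97% and 19.0% of the counts in small liver replicates 1, 2 and 3, and 32.5%, 15% and 37.1% in large liver replicates 1, 2 and 3. The Wilson 95% interval for the lowest of these shares was 4.80% to 4.828%, for counting error only. The 3 small libraries thus spanned the lower end and 2 large libraries the upper end, but small replicate 3 stood above large replicate 2. The mean share was 10.9% ± 7.29 in small and 28.2% ± 11.7 in large females (SD, n = 3 each), a ratio of 2.58. An exact two-sided permutation test of the difference gave p = 0.2, where 3 against 3 libraries cannot go below 0.1. In the sum of FPKM values the means were 14.5% ± 9.49 and 36% ± 13.5 (exact permutation p = 0.2). All 57 members together took 11.9% ± 7.71 and 29.5% ± 11.7 of liver counts, a difference of 17.6 percentage points (exact permutation p = 0.2). In whole-tissue RNA a smaller number of enzyme-making cells and less enzyme RNA per cell cannot be told apart.

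**Figure D1:**
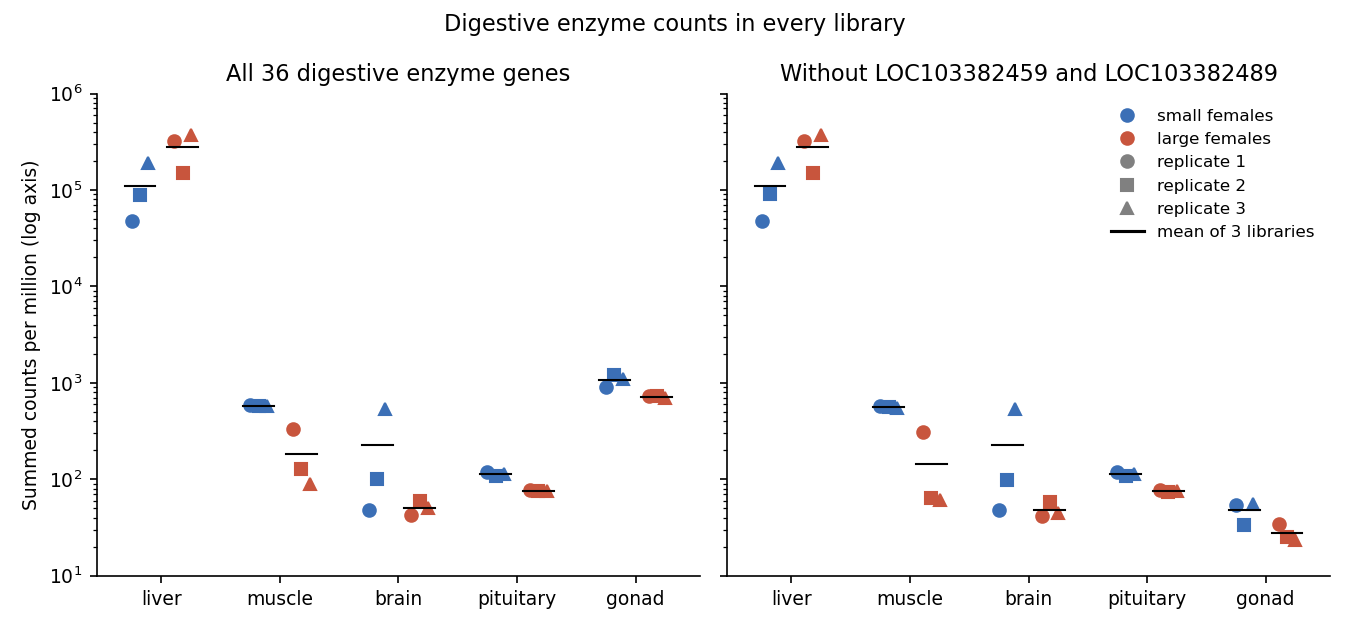
Summed CPM of the digestive enzyme genes (log axis) in each of 30 libraries by tissue, for all 36 genes and without LOC103382459 and LOC103382489; points are libraries, colours the size class, shapes the replicate number and bars the mean of 3 libraries. Liver libraries lie between 48140 and 370900 CPM, and no library of another tissue exceeds 1191 CPM.

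The enzymes were found above every other library in liver. Of 30 digestive enzyme genes in the table of all 30 libraries, 28 had their lowest liver library above the highest of the 24 other libraries, against 2.78% of all 19511 genes in that table (2.77% in FPKM, and 4.51% of the 12148 genes with a liver mean of at least 1 CPM). Of the 48 members in that table, 31 did so, the other 3 being the 2 alpha-1-antitrypsins and cpb2. The remaining 8 digestive enzyme genes had at most 22 counts summed over the 6 livers and did not pass the filter on low counts there. They were the trypsins LOC103386133, LOC103382459, LOC103385277 and LOC103385278, the chymotrypsins LOC103378636, LOC103381980 and LOC103382489, and the elastase LOC103381786.

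Trypsins, which cut proteins after lysine and arginine, held the gene with the highest level. LOC103389001 (trypsin-1) stood at 8640, 15000 and 30000 CPM in the small and 47300, 20100 and 52900 CPM in the large liver replicates 1, 2 and 3. Its mean per length, 32700 FPKM, was the highest of all members. Small replicate 3 again lay above large replicate 2, and the log2 fold change was 2.01 ± 0.72 (SE; edgeR adjusted p = 0.17). LOC103388534 (trypsin-3) stood at 2220, 8160 and 15600 CPM in the small and 23600, 11700 and 41300 CPM in the large libraries, a span of 18.6 times over the 6 livers (log2 fold change 2.38 ± 0.84, adjusted p = 0.166). LOC103389004 (trypsin-like) had 1510, 3260 and 8250 against 18700, 8690 and 18500 CPM. It was the only digestive enzyme gene of the 28 tested whose 3 large libraries all lay above its 3 small ones, against 1.97% of all liver genes, and its log2 fold change was 2.62 ± 0.78 (adjusted p = 0.119).

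In the other 4 trypsins tested small replicate 3 lay above large replicate 2 as well. LOC103389003 (trypsin-2-like) was at 2570, 2970 and 8630 CPM in the small and 19200, 7890 and 16100 CPM in the large livers (adjusted p = 0.121). LOC103389000 (trypsin-1), the 13th member by mean level and so past the 12 listed in full by rule, averaged 3870 ± 2730 and 8730 ± 3750 CPM. LOC103394162 and LOC103388528, both trypsin-3-like, were far lower, at 386 ± 305 and 1050 ± 667 CPM and at 45.6 ± 53.3 and 120 ± 77.9 CPM in the small and large livers. In the RefSeq gene table (assembly Cse_v1.0), LOC103389000, LOC103389001, LOC103389003 and LOC103389004 are neighbours with 1 other protein-coding gene between them. Altogether 17 of the 36 genes lay in 6 such runs with at most 5 protein-coding genes from one to the next. How the authors' counting split fragments between near-identical copies is not given in the sources used here, so the division within a run is uncertain.

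Chymotrypsins, which cut after large hydrophobic residues, held the single genes next in mean level. LOC103378820 (chymotrypsin B-like) had 4960, 11100 and 22900 CPM in the small and 34300, 18000 and 46900 CPM in the large livers (log2 fold change 2.16 ± 0.75, adjusted p = 0.16). LOC103378813 (chymotrypsin A-like) had 5420, 9730 and 17400 against 33600, 16700 and 35500 CPM (2.23 ± 0.67, adjusted p = 0.122). Both showed the overlap of small replicate 3 with large replicate 2. They lie in a run of 4 neighbouring chymotrypsin genes whose levels were far apart: per length, LOC103378820 averaged 24900 FPKM and LOC103378813 23000 FPKM, but LOC103378814 94.8 FPKM and LOC103378818 4.02 FPKM. The gene ctrl, a chymotrypsin-like protease, averaged 5540 FPKM, and LOC103378849 (chymotrypsin B-like) 59.5 FPKM.

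Elastases were led by LOC103377202 and LOC103384941, both named chymotrypsin-like elastase family member 2A. LOC103377202 stood at 6440, 6350 and 19300 CPM in the small and 31200, 15600 and 35100 CPM in the large libraries (log2 fold change 2.16 ± 0.71, adjusted p = 0.144). LOC103384941 stood at 5130, 10800 and 14700 against 28300, 13800 and 32600 CPM (2.15 ± 0.65, adjusted p = 0.124). Per length they averaged 19500 and 18500 FPKM, beside 19200 FPKM of the trypsin LOC103388534, differences far smaller than the spread between libraries. LOC103384942, the neighbour of LOC103384941, averaged 41.5 FPKM and did not follow the others: it had 1.33, 49.2 and 66.7 CPM in the small and 52.7, 15.8 and 33.4 CPM in large livers (0.66 ± 1.01, adjusted p = 0.746). LOC103386708 (elastase-1-like) ran from 753 CPM in small replicate 1 to 13600 CPM in large replicate 3, with 2260, 7460, 11900 and 4460 CPM in small replicates 2 and 3 and large replicates 1 and 2. Its neighbours LOC103386721 and LOC103386709, also elastase-1-like, spanned 923 to 7800 and 513 to 4710 CPM, LOC103398248 (elastase family member 2A) 206 to 1650 CPM and LOC103396268 (elastase family member 3B) 9.43 to 56.6 CPM.

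The carboxypeptidases, which remove amino acids from the end of peptides, were cpa1 and cpb1. For cpa1 the values were 3180, 4600 and 13600 CPM in the small and 23500, 9740 and 24100 CPM in the large livers (log2 fold change 2.24 ± 0.77, adjusted p = 0.157). For cpb1 they were 1070, 3270 and 8170 against 13400, 4780 and 12900 CPM (2.14 ± 0.84, adjusted p = 0.202). In both, small replicate 3 exceeded large replicate 2. The amylase gene LOC103396493, whose product degrades starch, averaged 1430 ± 761 CPM in the small and 3100 ± 1270 CPM in the large livers (adjusted p = 0.142). Of the lipases, the bile salt-activated LOC103389284 averaged 951 ± 555 and 2000 ± 775 CPM, a second one, LOC103397968, 99.9 ± 56.0 and 226 ± 77.3 CPM, LOC103389307, the neighbour of the former, 11.4 ± 3.93 and 15 ± 5.87 CPM, and LOC103387723, named an inactive pancreatic lipase-related protein, 136 ± 68.9 and 155 ± 78.6 CPM.

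**Figure D2:**
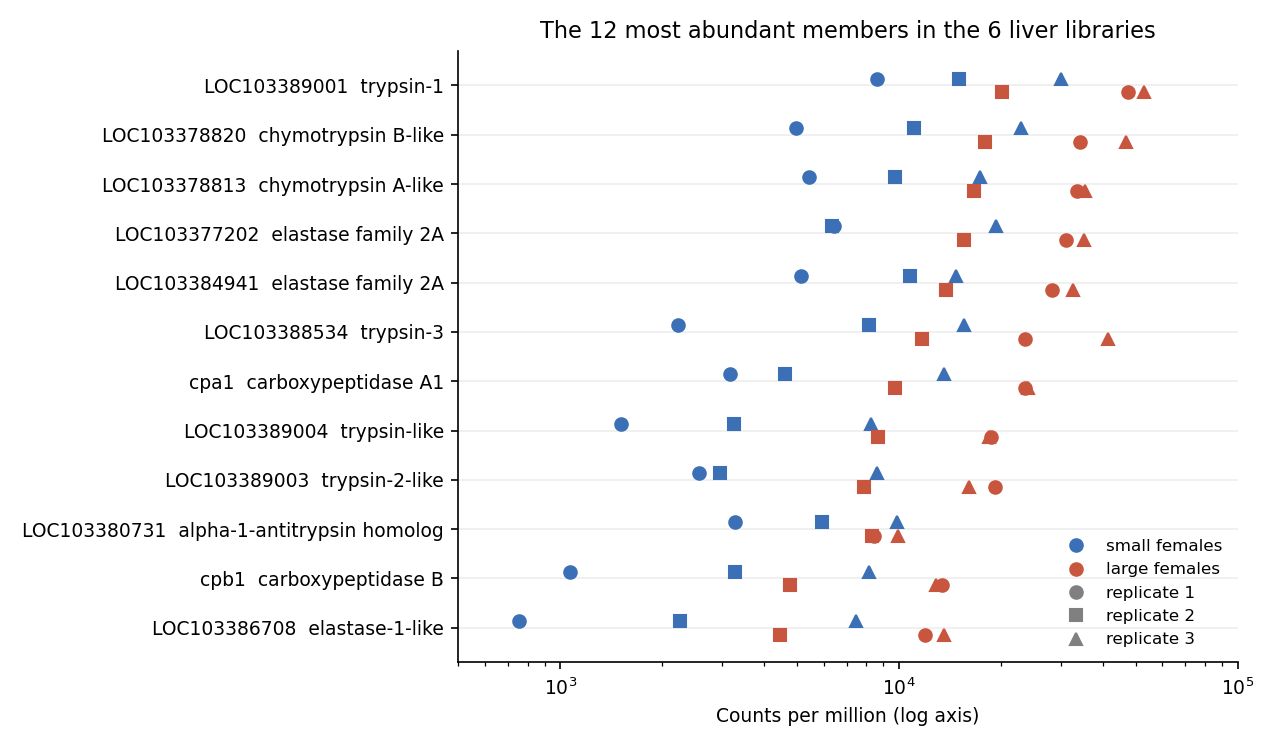
CPM (log axis) of the 12 members with the highest mean level in liver, in each of the 6 liver libraries; colours give the size class and shapes the replicate number. For 10 of the 11 digestive enzymes among them small replicate 3 lies above large replicate 2, LOC103389004 being the exception.

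Tested gene by gene, no member passed the threshold in liver. The test was edgeR's quasi-likelihood F test on the 6 livers with Benjamini-Hochberg adjustment over 11878 genes at 0.05, and 0 of 35 members tested were called, against 1.31% of all genes (0.732% higher and 0.581% lower). At an unadjusted p under 0.05, 30 of the 35 members were higher and 1 lower in large females, against 10.4% and 9.7% of all genes. The 30 include non-enzymes: both alpha-1-antitrypsins, ppdpf and LOC103385597. On edgeR's scale all 28 digestive enzyme genes tested had a log2 fold change above 0. Their median was 2.15 (range 0.66 to 2.62) beside -0.02 over all genes, and their adjusted p-values ran from 0.119 to 0.746. These genes vary together across libraries, so their number adds little to the 6 values of the sum. DESeq2 called 17 members higher, against 3.45% of all genes. With limma, 8 members were higher on log2(FPKM + 1), against 0.967% of all genes, and 3 on log2(FPKM + 0.1), against 0.796%. Without a filter on low counts edgeR called 6, against 1.75%. In a fit of all 30 libraries it called 9 higher, against 5.72%, and 1 lower, for which the share of all genes is not given. Without small replicate 3, edgeR called 25 members higher, against 5.76% of all genes. Without any other single library it called 0 members, and the share of all genes in those fits is not given.

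The scale mattered for the size of these differences and, for LOC103384942, for the direction. Its mean was 39.1 CPM in small and 34 CPM in large livers, while its edgeR log2 fold change was 0.66. On the authors' FPKM scale the median log2 fold change of all liver genes was -0.59 and that of the 28 digestive enzyme genes 1.36. With edgeR's TMM scaling these were -0.02 and 2.15. Where the enzymes took more of a library, all other genes together took less. How much of the shift between the scales comes from this was not tested. Of 9924 genes tested with limma on log2(FPKM + 1), 96 were called higher and 1053 lower, while edgeR called 87 higher and 69 lower. The hepatocyte list, 29 genes such as apolipoproteins and fibrinogens fixed by name, took 18%, 18.3% and 18.7% of counts in small and 14.9%, 20.1% and 15.3% in large livers (0 of 29 called, median log2 fold change 0.33). Set against the counts that were not digestive enzymes, these genes stood at 188800, 201400 and 231300 CPM in the small and 221300, 236100 and 243000 CPM in the large livers. The ratio of digestive to hepatocyte counts was 0.268, 0.489 and 1.01 in small and 2.18, 0.746 and 2.43 in large livers, and small replicate 3 again lay above large replicate 2.

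While their sum varied 7.7-fold between livers, the larger enzyme classes kept nearly fixed proportions. Trypsins made up 36.5% ± 1.14 of the digestive counts (SD over 6 livers; range 35.0% to 38.0%), elastases 26.2% ± 1.53, chymotrypsins 25.0% ± 1.48, carboxypeptidases 10% ± 1.18, amylase 1.24% ± 0.206 and lipases 1.02% ± 0.216. Among the 16 genes with at least 1% of the digestive counts, the highest CPM was 5.53 to 18.6 times the lowest, with a median of 7.54. The highest proportion of the same genes was only 1.23 to 2.51 times the lowest, with a median of 1.57. Of these 16, LOC103378820 and LOC103378813 were the steadiest at 11.7% ± 0.991 and 10.4% ± 0.861. LOC103386708 moved most, from 1.56% and 2.52% in small replicates 1 and 2 to 3.93% in small replicate 3 and 2.98% to 3.66% in large livers, followed by LOC103388534 at 4.61% to 11.1%. Some enzymes under 1% did not follow the sum. The highest CPM was 50.1 times the lowest for LOC103384942 and 2.9 times for LOC103387723.

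Between size classes the make-up overlapped in all classes but the lipases. Trypsins took 36.1% ± 1.02 of the digestive counts in small and 37.0% ± 1.27 in large livers, and chymotrypsins 25.3% ± 1.89 and 24.7% ± 1.3. The lipases took 1.17% ± 0.201 and 0.862% ± 0.0789, with all 3 small livers above all 3 large ones. These proportions are given as a description, with no test. Per length, trypsins took 39.2% ± 1.25, chymotrypsins 26.4% ± 1.5, elastases 26.6% ± 1.46 and carboxypeptidases 6.48% ± 0.783 of the digestive FPKM. The 6 genes with the most counts held 65.1% of the digestive counts on average, and 17 of the 36 genes averaged at least 1000 FPKM.

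**Figure D3:**
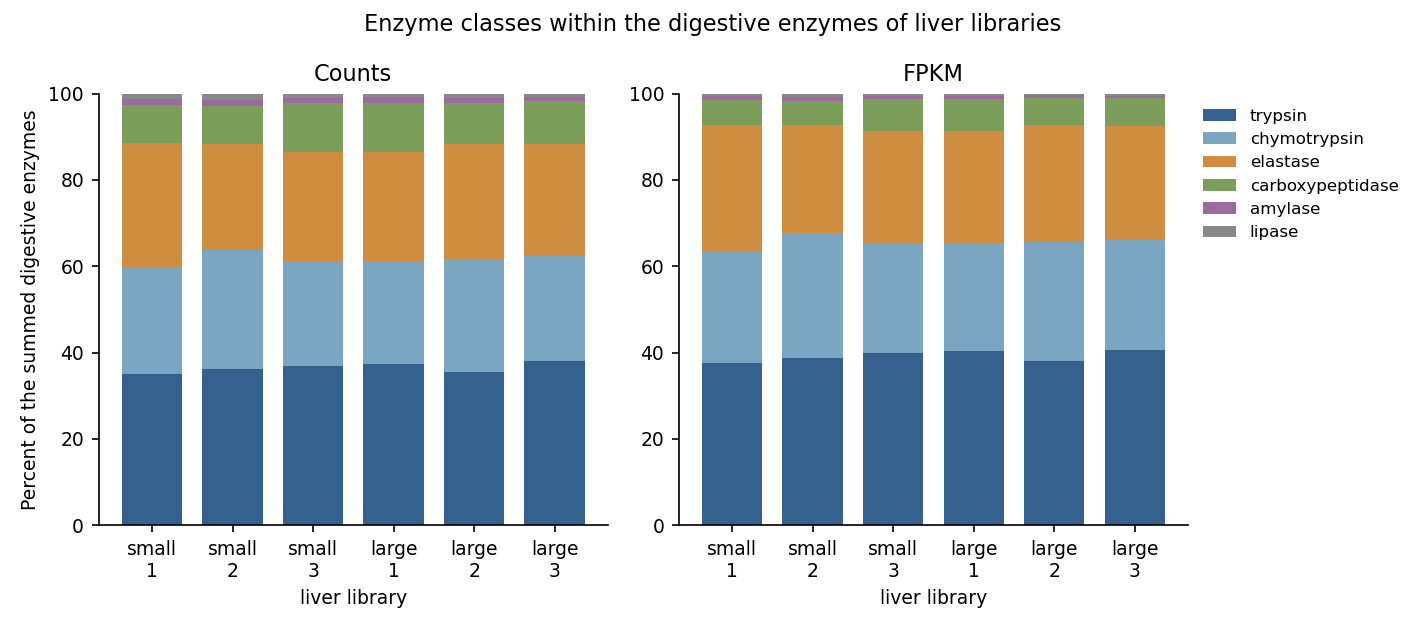
Percent of the summed digestive enzymes taken by each class in the 6 liver libraries, for counts and for FPKM. The trypsin segment stays between 35.0% and 38.0% of counts in all 6 libraries.

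Genes of acinar cells that are not enzymes of the rule were present in the same livers. The list held 18 genes, of which 14 were tested and 1 was called, higher in large females, beside 0.732% of all genes, with a median log2 fold change of 1.19 beside -0.02 over all genes. The called gene was LOC103398106 (phospholipase A2-like), at 70.0, 201 and 284 CPM in the small and 1650, 906 and 1420 CPM in the large livers (log2 fold change 3.67 ± 0.66, adjusted p = 0.0363). Here the large libraries all lay above the small ones. The gene pla2g1b, which encodes pancreatic phospholipase A2 in mammals, had 446, 546 and 2820 against 9190, 4880 and 9490 CPM (3.38 ± 0.88, adjusted p = 0.0893). The transcription factor genes of the acinar programme were low but detected: ptf1a stood at 2.55, 4.51 and 5.49 CPM in the small and 4.74, 5.92 and 8.10 CPM in large livers, rbpjl at 9.43 to 15.7 and 9.23 to 25.0 CPM, and bhlha15 at 0.666 to 2.37 and 2.70 to 4.14 CPM. The zymogen granule gene zg16 averaged 0.0751 CPM in small livers and had no count in large ones. The highest value of ptf1a outside liver was 0.646 CPM, whereas bhlha15 reached 85.5 CPM elsewhere. The ranges of ptf1a and rbpjl overlapped between size classes and those of bhlha15 did not (adjusted p = 0.128).

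Of 19 endocrine genes, 2 were tested in liver, 0 were called and 7 had 0 counts. The glucagon gene gcg, a hormone gene of islet alpha cells and of gut cells, stood at 222, 1070 and 14.2 CPM in the small and 0.355, 58.6 and 0.109 CPM in large livers (log2 fold change -4 ± 1.74, adjusted p = 0.242). It was highest in small replicate 2 and lowest in large replicates 1 and 3, the libraries with the most digestive enzyme counts, where it had 3 and 1 counts. The insulin gene ins had 0 counts in all 6 livers, which allows up to 0.312 to 0.383 CPM per library (3 counts, counting error only). The other endocrine gene tested, LOC103392494 (a homeobox gene like mnx1), had 2.22, 3.27 and 3.71 CPM in the small and 1.3, 2.39 and 6.02 CPM in the large livers (0.89 ± 0.58, adjusted p = 0.418).

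Markers of other cells were also measured, and their part in the differences was not tested. The intestine list (44 genes, 20 tested, 0 called) summed to 10730 CPM in small replicate 1 and 2801 to 5691 CPM in the other livers, and its most abundant genes were the apolipoprotein A-IV-like LOC103393985, LOC103389010 and LOC103389009. Over the 20 tested, log2 fold changes ran from -2.27 to 2.98, with a median of 0.31 and 14 above 0. One low gene of the list was tmprss15, which encodes enteropeptidase, the activator of trypsinogen. It stood at 0.111, 1.01 and 1.66 CPM in the small and 2.25, 4.68 and 6.13 CPM in large livers (edgeR adjusted p = 0.0747). The duct list (36 genes, 11 tested, 0 called) summed to 285.1 to 508.6 CPM in the small and 316.3 to 546.3 CPM in large livers, and the blood list to 4.771 to 36.67 and 27.58 to 48.74 CPM. Of 17 protease inhibitor genes 12 were tested and 0 called (median log2 fold change 0.93). One of them, LOC103384134, named a pancreatic secretory proteinase inhibitor, averaged 155 ± 41.0 and 206 ± 32 CPM (adjusted p = 0.117).

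Genes of the secretory pathway of the endoplasmic reticulum, which folds secreted proteins, had a median log2 fold change of -0.39. Of 49 genes 43 were tested and 0 called, with 6 higher and 14 lower at an unadjusted p under 0.05, beside 10.4% of all liver genes higher and 9.7% lower. The chaperone gene hspa5 stood at 1050, 1360 and 310 CPM in the small and 15.5, 137 and 11.3 CPM in large livers, with no overlap (log2 fold change -3.52 ± 0.79, adjusted p = 0.0661). Another chaperone gene, hsp90b1, stood at 620, 3150 and 641 against 77.1, 334 and 117 CPM (adjusted p = 0.0953). Like gcg, both were lowest in large replicates 1 and 3.

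**Figure D4:**
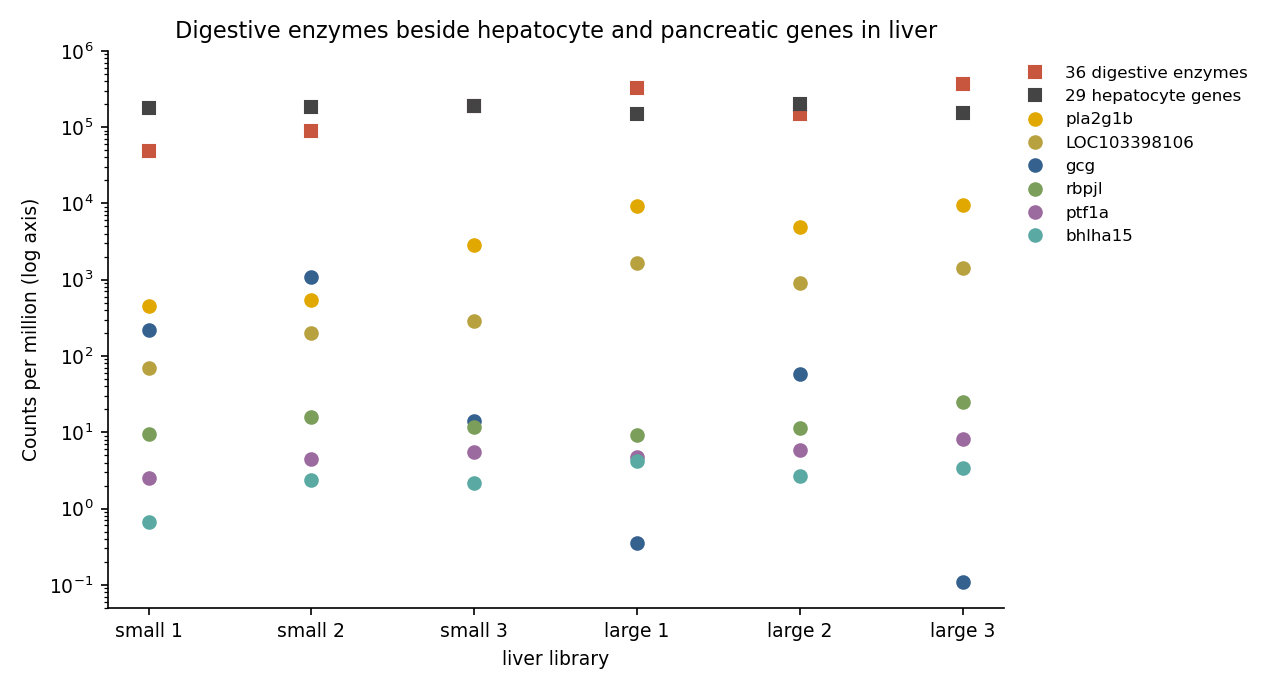
CPM (log axis) in each liver library of the summed digestive enzymes and hepatocyte genes (squares) and of single pancreatic genes (circles). pla2g1b and LOC103398106 are higher in the 3 large libraries, whereas gcg falls from 1070 CPM in small replicate 2 to 0.109 CPM in large replicate 3.

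Outside the members, the genes most like the digestive sum across livers included proteases, a protease inhibitor and a chaperone. Likeness was Pearson's r of log2(CPM + 1) with the summed digestive CPM over the 6 liver libraries, given as a description since all points share the libraries and their depth. The 10 highest of 12113 genes had r of 0.976 to 0.995. They were endou (an endoribonuclease), XLOC_015575 (transcobalamin-1, a vitamin B12 carrier), LOC103378956 and LOC103378955 (low choriolytic enzyme-like, named after a hatching protease of fish embryos), LOC103391432 (double-headed protease inhibitor), LOC103384948 (transmembrane protease serine 9-like), LOC103388959 (vitelline membrane outer layer protein 1 homolog), LOC103397361 (perforin-1-like), PDIA2 (a protein disulfide isomerase known from pancreas in mammals) and LOC103384112 (ependymin-like). LOC103378956 was the most abundant, at 1120, 2260 and 5660 CPM in the small and 15300, 4520 and 11500 CPM in the large livers. Of 28 digestive enzyme genes with at least 1 CPM in liver, which are part of the sum, 23 had r of at least 0.95, against 0.215% of the other genes.

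Muscle held traces of the same enzymes, with a higher sum in small than in large females. The digestive sum was 586.6, 570.3 and 570.1 CPM in the small and 333.4, 128.1 and 89.68 CPM in large muscle replicates 1, 2 and 3 (exact permutation p = 0.1, the smallest possible). The groups did not overlap, and large replicate 1 stood nearest to the small libraries. Of 31 members tested, 12 fell, against 10.4% of all 13301 genes, and 4 rose, against 13.1%. The fallen included 11 digestive enzyme genes, with log2 fold changes from -3.46 to -1.83. The amylase gene LOC103396493 went from 18.1, 19.9 and 14.5 CPM to 3.41, 0.5 and 0.973 CPM (-3.46 ± 0.52, adjusted p = 0.00327). LOC103378820 went from 87.3, 86.9 and 89.7 CPM to 27.9, 7.30 and 6.40 CPM (-2.68 ± 0.50, adjusted p = 0.00608), and LOC103389001 from 74.7, 76.0 and 73.8 CPM to 33.3, 6.47 and 8.17 CPM (-2.23 ± 0.53, adjusted p = 0.0163). The others were LOC103378813, ctrl, LOC103386709, cpa1, LOC103389284, LOC103389000, LOC103389003 and LOC103389004. With the 3 nearly alike small libraries summed to 1, chosen after seeing the data, the log2 fold changes of the 16 called members moved by at most 0.06 and 14 kept an unadjusted p under 0.05. None passed the adjustment then (lowest adjusted p = 0.21), in a fit where 1 arm is a single library with no spread of its own and 0 of 14944 genes were called.

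For the enzymes tested in liver, a set without LOC103382459 and LOC103382489, the make-up of the muscle traces was close to that of liver. Among 16 enzymes with at least 1% of the liver enzyme counts, the proportion in the muscle traces (of the 28 enzymes tested in liver, over 6 libraries) was 0.525 to 2.17 times that in liver, with a median of 0.963. Over the small libraries alone the ratios were 0.434 (LOC103386721) to 2.5 (the amylase gene), and over the large ones 0.707 (LOC103389001) to 1.52 (LOC103386709), where the amylase gene stood at 0.885. Hepatocyte genes were also lower in large muscle replicates 2 and 3, though not in replicate 1: the median of 24 hepatocyte genes was 2.08% to 2.22% of its liver level in small muscle and 2.31%, 0.215% and 0.167% in large muscle replicates 1, 2 and 3. The median of 21 digestive enzyme genes was 0.262% to 0.276% in small and 0.151%, 0.0317% and 0.0305% in large muscle. Both blood genes tested, alas2 and slc4a1, fell in large muscle (median log2 fold change -1.75), with a median of 493% to 538% of their liver level in small and 137% to 207% in large libraries. Of 14 intestine genes tested in muscle, 6 were lower and 2 higher. What part RNA of liver or blood has in the muscle differences was not tested.

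In brain 1 library carried most of the enzyme counts. The digestive sum was 48.22, 99.68 and 537.3 CPM in the small and 42.54, 59.70 and 49.75 CPM in large replicates, so that small replicate 3 stood apart. Of 30 members tested, 0 were called by edgeR, against 0.0118% of 16878 genes (0.00592% higher and 0.00592% lower), and DESeq2 called 1 lower, against 0.219% of all genes. At an unadjusted p under 0.05 edgeR had 1 member higher, beside 3.57% of all genes, and 11 lower, beside 2.77%. In small replicate 3 LOC103389001 stood at 71.1 CPM, beside 4.04 to 11 CPM in the other 5 brains. Pooled over brains, the proportions of the 16 enzymes were 0.716 to 1.41 times those in liver, but most of these counts were from small replicate 3. Over the other 5 brains, with 2107 counts, the ratios were 0.535 (the amylase gene, 14 counts) to 2.11 (cpa1, 290 counts), with a median of 0.992. In small replicate 3 the 24 hepatocyte genes had a median of 0.494% of their liver level, beside 0.0682% to 0.180% in the other brains. The hepatocyte sum, which a few abundant genes can lead, did not set that library apart. It stood at 6076 CPM there, beside 3186 to 8539 CPM in the other brains. Both alpha-1-antitrypsins were highest in small replicate 3. LOC103380731 had 37.5 CPM there, beside 0.979 to 8.66 CPM in the other brains, and LOC103398029 11.5 CPM, beside 0.489 to 5.56 CPM. The part of hepatocyte RNA in the enzyme counts was not tested.

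In pituitary the traces were small and LOC103386708 stood out of proportion. The digestive sum was 119.3, 107.4 and 113.0 CPM in the small and 77.37, 74.87 and 76.04 CPM in large females, without overlap (exact permutation p = 0.1). The median of the 24 hepatocyte genes was 0.144%, 0.139% and 0.144% of its liver level in small and 0.0581%, 0.103% and 0.0501% in large pituitaries, also without overlap. Their sum did overlap, through large replicate 2 alone, at 414.5, 434.2 and 440.4 CPM in the small and 230.4, 923 and 264.1 CPM in the large libraries. Log2 fold changes of the hepatocyte genes tested had a median of -0.99 and ran from -2.54 to 4.25. Of 23 hepatocyte genes tested 4 were lower and 1 higher, and of 2 blood genes 1 was lower. Their part in the enzyme differences was not tested. Of 28 members tested, 6 fell and 0 rose, against 3.4% of 15668 genes lower, 2.42% higher and 5.82% in either direction. They were 4 enzymes and both alpha-1-antitrypsins: LOC103378813 (-1.09 ± 0.20, adjusted p = 0.0195), LOC103388534, LOC103389001, LOC103389003, LOC103380731 and LOC103398029. With any single small library left out edgeR called 0 members, and the share of all genes in those fits is not given. With the 3 small libraries summed to 1, which then has no spread of its own, the fold changes moved by at most 0.01. LOC103386708 (elastase-1-like) had 30.0, 26.3 and 25.2 CPM in the small and 14.9, 13.7 and 23.1 CPM in large pituitaries (-0.70 ± 0.21, adjusted p = 0.0961). Its 977 counts were 23.9% of those of the 28 enzymes there, beside 3.05% in liver, a ratio of 7.83. For the 15 other enzymes the ratio lay between 0.466 and 1.55.

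In gonad most of the enzyme counts came from a pair of genes that were near 0 in liver. LOC103382459 (trypsin-2-like) stood at 748, 999 and 895 CPM in the small and 597, 584 and 579 CPM in the large gonads, and at 0 to 0.666 CPM in liver. LOC103382489 (chymotrypsin B-like) stood at 110, 158 and 146 CPM in the small and 102, 113 and 101 CPM in the large gonads. Together they held 94.0% to 97.2% of the digestive counts in gonad. Their total with all other enzymes was 912.4, 1191 and 1097 CPM in the small and 733.1, 722.1 and 703.5 CPM in the large females (exact permutation p = 0.1, the smallest possible). Both fell in large females (LOC103382459 by 0.90 ± 0.14 on the log2 scale, adjusted p = 0.00312; LOC103382489 by 0.71 ± 0.16, adjusted p = 0.0141), although LOC103382489 overlapped in CPM between small replicate 1 and large replicate 2. In muscle both rose, LOC103382459 from 10.3, 10.3 and 9.95 CPM to 12.4, 47.1 and 17.4 CPM (1.24 ± 0.35, adjusted p = 0.0324) and LOC103382489 from 4.38, 4.43 and 5.97 CPM to 8.52, 17.6 and 11.5 CPM (adjusted p = 0.00894).

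The other 34 enzyme genes summed to 33.9 to 56.0 CPM in the small and 23.6 to 34.2 CPM in large gonads. Among them LOC103398248 (elastase family member 2A) had 6.51, 16.6 and 14.8 CPM in the small and 6.31, 5.57 and 6.36 CPM in large gonads (-1.37 ± 0.34, adjusted p = 0.0192). Its proportion of the counts of the 28 enzymes tested in liver was 51.8 times that in liver. LOC103389004 had 18.4, 6.23 and 15.9 against 3.98, 4.90 and 4.82 CPM (-1.85 ± 0.34, adjusted p = 0.00548), a proportion 5.26 times that in liver. In all, 5 members fell and 3 rose in gonad among 25 tested, against 13.5% and 10.9% of 14123 genes. With the 3 nearly alike large gonad libraries summed to 1, the 8 log2 fold changes moved by at most 0.03 and 7 kept an unadjusted p under 0.05, but none passed the adjustment (lowest adjusted p = 0.307), while 12 of all 15007 genes did.

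**Figure D5:**
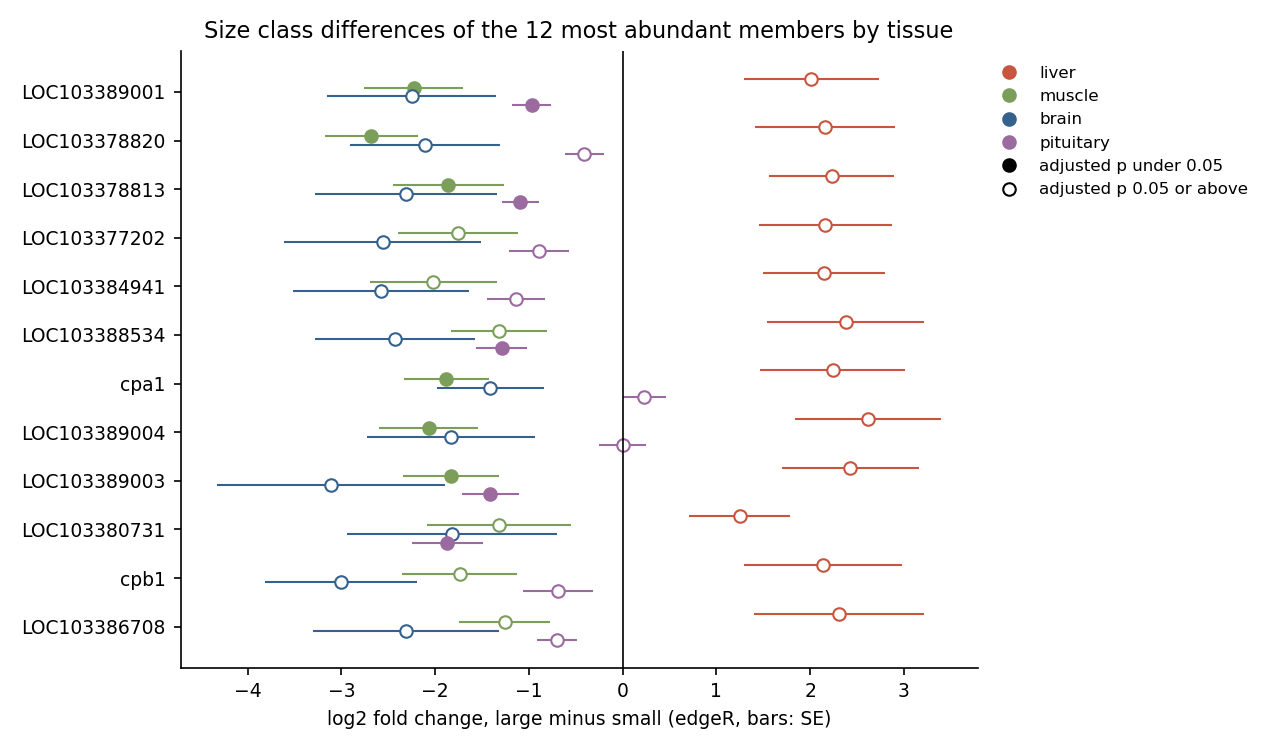
Log2 fold change, large minus small, of the 12 most abundant members in liver, muscle, brain and pituitary, with SE bars from edgeR; filled points passed the adjusted threshold. All liver values lie above 0 and none is filled, and all muscle and brain values lie below 0.

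The size difference itself was compared between tissues in 1 edgeR fit of all 30 libraries, a test chosen after seeing the data. The fit had no term for pool and took the libraries as independent. With 6 fish named per size class, libraries of different tissues may come from the same fish, which its p-values leave out. Counted here are genes whose difference was more positive in liver at an adjusted p under 0.05. Among the enzymes past the filter on low counts in both tissues, they were 15 of 18 against muscle (5.58% of all such genes) and 12 of 14 against brain (1.64%). Against gonad they were 4 of 10 (6.64%) and against pituitary 0 of 13 (2.33%). Over all 30 enzymes in the fit, some near 0 counts outside liver, the numbers were 15 for muscle (4.09% of all genes) and 16 for brain (1.51%). They were 4 for gonad (4.54%) and 0 for pituitary (1.9%), and 0 passed with a less positive difference. The median difference against pituitary was 2.61 on the log2 scale, though 0 passed there. For LOC103378820 the liver difference exceeded the muscle difference by 4.64 ± 1.02 on the log2 scale (adjusted p = 0.00355) and the brain difference by 4.15 ± 1.03 (adjusted p = 0.0261). The brain count was 0 without small brain replicate 3. It was also 0 with the nearly alike libraries of small pituitary, small muscle and large gonad each summed to 1. The brain and liver groups kept their 3 libraries in that fit, and why the brain count changed was not tested. The summing left muscle and gonad with a group of a single library, so it cannot decide those comparisons.

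Of the 7 members tested in liver that matched on a word alone, 0 were called. The alpha-1-antitrypsin homolog LOC103380731, a plasma protease inhibitor made by hepatocytes, had 3270, 5910 and 9850 CPM in the small and 8440, 8350 and 9920 CPM in the large livers (1.25 ± 0.54, adjusted p = 0.238). LOC103398029, of the same family, averaged 1940 ± 655 and 2310 ± 116 CPM. Their highest liver library was 3.03 and 2.04 times the lowest, beside 5.53 to 18.6 times for the 16 enzymes with at least 1% of the digestive counts. In muscle LOC103380731 stood at 220, 202 and 211 CPM in the small and 214, 21.9 and 18.9 CPM in large females (adjusted p = 0.244). The gene cpb2, a carboxypeptidase of blood plasma and not of digestion, averaged 225 ± 19.7 and 180 ± 40.8 CPM in liver (adjusted p = 0.397).

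The pancreatic progenitor factor genes ppdpf (1.12 ± 0.41, adjusted p = 0.179) and LOC103385597 (1.01 ± 0.44, adjusted p = 0.242) had positive log2 fold changes in liver, with overlap. In other tissues too they were present: ppdpf averaged 1400 CPM in liver, 1210 CPM in pituitary, 955 CPM in brain, 889 CPM in gonad and 473 CPM in muscle, and LOC103385597 fell in muscle from 146, 144 and 154 CPM to 97.0, 96.1 and 65.8 CPM (-0.82 ± 0.17, adjusted p = 0.00857). Of the neurotrypsins, proteases of neurons in mammals, LOC103381764 and prss12 were highest in brain, averaging 313 and 17.2 CPM, and LOC103383820 stayed under 1 CPM on average in all 5 tissues. In gonad prss12 was called lower in large females on 1.2, 1.61 and 2.15 CPM against 0, 0 and 0.505 CPM (adjusted p = 0.0145). LOC103380222, named after the zymogen granule protein GP2, was at 12.7 to 20.4 CPM in brain and averaged 0.0385 CPM in liver. The macrophage metalloelastase LOC103394802 had 0 counts in liver.

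The 11 tubulin polyglutamylase genes averaged at most 4.90 CPM in liver, where only ttll4 was tested, with 11.9, 5.75 and 4.85 CPM in the small and 1.07, 4.47 and 1.42 CPM in large females (-1.01 ± 0.44, adjusted p = 0.239). In gonad tpgs1 rose from 53.7, 40.8 and 63.6 CPM to 101, 102 and 107 CPM (0.67 ± 0.14, adjusted p = 0.00912), ttll11 from 5.03, 2.08 and 3.05 CPM to 11.3, 11 and 12.7 CPM (1.48 ± 0.28, adjusted p = 0.00629) and ttll4 from 37.7, 24.9 and 34.7 CPM to 58.0, 52.8 and 60.7 CPM (0.52 ± 0.14, adjusted p = 0.027). In muscle tpgs1 (adjusted p = 0.0131) and ttll4 (adjusted p = 0.0463) rose. The other genes of this family that stood above their liver level at 5 CPM or more were ttll1, ttll5, ttll7, ttll9, tpgs2 and XLOC_000120, with means of 5.92 to 20.1 CPM in the tissues concerned, brain and pituitary among them.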

How the data were processed

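The authors deposited 1 table with an FPKM value and an estimated count for each of 22292 genes and 30 libraries, per the file headers; 2% of the estimated counts were not whole. Per the labels' protocols, RNA was extracted with Trizol and sequenced with Illumina libraries. Per the submitters' processing notes edgeR was used, with no version named. The sources used here give no aligner, quantifier or genome build. Groups are size class by tissue. All table columns were mapped to samples. Replicate numbers were not taken to pair libraries. Same-numbered small and large livers deviated from their group means with correlations of -0.08, 0.09 and 0.14. The values were -0.03, 0.26 and 0.19 in brain and -0.05 to 0.03 in pituitary, gonad and muscle. Whether the numbers link libraries of different tissues was not tested.

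The members, gene lists and tests were chosen with earlier results of these data known. Named genes were the 12 members with the highest mean CPM in liver, any member past the threshold or at 5 CPM or more and above liver in another tissue, the 10 genes most like the digestive sum, and genes of the lists; other members are named where a count or a run of neighbours calls for it, after their values were seen. Symbols came from the table and from the RefSeq gene table, to which 19502 genes matched.

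Estimated counts were rounded. Large and small females were compared in each tissue with edgeR 4.0.16 in R 4.3.3 (filterByExpr, TMM, quasi-likelihood F test, two-sided, Benjamini-Hochberg over all genes tested, threshold 0.05); the SE is the log2 fold change over the root of F. Alternatives were DESeq2 1.42.0, limma 3.58.1 on log2(FPKM + 1) and log2(FPKM + 0.1) keeping genes that reach 1 FPKM in 3 or more libraries, or with no filter, median-of-ratios scaling, scaling without the members, no count filter, a replicate block, a fit of all 30 libraries and leaving out each library. On simulated data with 200 changed genes the liver test recovered 0% of genes changed 2-fold and 68% of those changed 4-fold among 11878 genes, with 5 false calls. Figures were drawn with matplotlib 3.10.9, and tables made in Python 3.11.15 with scipy 1.17.1, pandas 2.3.3 and numpy 2.4.6.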

Additional observations from a re-analysis of the deposited data

Results flagged for a closer look

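The difference between size classes in liver exceeded that in another tissue for the following abundant enzyme genes, in the edgeR fit of all 30 libraries that was chosen after seeing the data (adjusted p under the threshold for each). Values are log2 differences, the liver effect of being large minus the effect in the other tissue. Against brain they were 4.14 for LOC103389001, 4.15 for LOC103378820, 4.41 for LOC103378813, 4.6 for LOC103377202, 4.61 for LOC103384941, 4.69 for LOC103388534, 3.53 for cpa1, 4.32 for LOC103389004, 5.41 for LOC103389003, 5.01 for cpb1 and 4.5 for LOC103386708. Against muscle they were 4.03 for LOC103389001, 4.64 for LOC103378820, 3.89 for LOC103378813, 3.72 for LOC103377202, 3.97 for LOC103384941, 3.5 for LOC103388534, 3.91 for cpa1, 4.49 for LOC103389004, 4.05 for LOC103389003 and 3.67 for cpb1. Against gonad they were 3.26 for LOC103378820, 3.95 for LOC103388534 and 4.39 for LOC103389004.

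These enzymes vary together between libraries, so the genes are not separate pieces of evidence. Without small brain replicate 3, which held 537.3 CPM of digestive enzyme counts beside 42.54 to 99.68 CPM in the other brains, 0 of the differences against brain passed. With the nearly alike libraries of small pituitary, small muscle and large gonad each summed to 1, 0 passed against any tissue, in a fit where those arms have no spread of their own.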

How the results depend on the processing

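In liver, where edgeR called 0 members, DESeq2 called 17, the fit with no filter on low counts 6, limma on log2(FPKM + 1) 8 and on log2(FPKM + 0.1) 3, and the fit of all 30 libraries 10. Leaving out 1 library gave 0 to 25, the 25 without small replicate 3. In brain (0) DESeq2 called 1. In pituitary (6) the fit of all 30 libraries called 0, summing the nearly alike libraries gave 0 and leaving out 1 library 0 to 10. In gonad (8) these were 2, 0 and 3 to 12, and in muscle (16) 9, 0 and 4 to 27, the 27 without large replicate 1; limma with no filter called 7 in muscle. Over these 4 tissues (30) they were 11, 0 and 12 to 33. With the replicate number as a block, which was not taken to pair these libraries, 1 member was called in liver (against 1.14% of all genes higher). The block fit called 1 in pituitary, 8 in gonad, 23 in muscle and 0 in brain. Outside liver the share of all genes called in these alternative fits is not given. The main fits called 5.82% of all genes in pituitary, 24.5% in gonad and 23.5% in muscle. These member counts are therefore not read as a result about the members. The trypsin proportion of 36.5% became 39.2% in FPKM, and the liver share stayed at exact permutation p = 0.2 to 0.4. Of the size differences past the threshold between tissues, those against brain fell to 0 without small brain replicate 3. Those against pituitary numbered 2 without small brain replicate 3 and 14 without small liver replicate 3. Those against gonad numbered 10 without small liver replicate 3, and the share of all genes is not given for these fits. With the nearly alike libraries summed, those against brain were 0, although the brain and liver groups kept all their libraries. The summing leaves a group of a single library in pituitary, gonad and muscle and cannot decide those comparisons. The causes were not tested. For the 12 most abundant members in liver, 150 of 180 alternative values kept their side of the threshold, 30 passed it and 0 changed sign. The self-check described with the methods recovered 0% of 2-fold and 68% of 4-fold changes in liver. It changed genes picked at random and drew each gene independently. It therefore sets no detection limit for these abundant enzymes, which vary together.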
